A study of Mus musculus with 12 samples.

Results

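Fc receptors and IgG-binding lectins are the proteins through which a cell could sense infused IgG directly, and 9 such genes were followed here in sorted mouse regulatory T cells (Treg). They were chosen by symbol as candidate sensors: Fcgr1, Fcgr2b, Fcgr3, Fcgr4, Fcer1g, Fcgrt, Trim21, Clec4a2 and Fcer2a. Each of the 9 had exactly 1 probe set, the unit of measurement of the array, so 9 of the 23521 probe sets with a single gene symbol were members. None of the 9 passed the test in any comparison of the 3 groups. Of all 23521 probe sets, 0%, 9.99% and 11.2% passed in the 3 comparisons described below.

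The receptors fall into classes with opposite signals. Fcgr1, Fcgr3 and Fcgr4 encode the ligand-binding chains of the activating Fc gamma receptors of mouse, which sit with the signalling chain encoded by Fcer1g. That chain carries an activation motif (ITAM) read by the kinase Syk. Fcgr2b encodes the inhibitory Fc gamma receptor, which carries an inhibitory motif (ITIM) and recruits the lipid phosphatase encoded by Inpp5d. Fcer2a encodes CD23, the low-affinity receptor for IgE and a C-type lectin of B cells. Clec4a2 encodes the dendritic cell immunoreceptor DCIR, an ITIM-bearing C-type lectin. Fcgrt encodes FcRn, which pairs with beta-2 microglobulin and protects IgG from breakdown, and Trim21 encodes a ubiquitin ligase that binds antibody in the cytosol. In the spleen the Fc gamma receptors, CD23 and DCIR are known mainly from macrophages, monocytes, dendritic cells, neutrophils, natural killer (NK) cells and B cells. Markers of those cells were therefore read beside the 9 genes.

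All samples were splenic Treg isolated by flow cytometry from DEREG mice with allergic airways disease, made by sensitization and challenge with ovalbumin. In DEREG mice Foxp3-expressing cells carry the diphtheria toxin receptor with a fluorescent protein, so diphtheria toxin (DTx) removes them. There were 4 arrays in each of 3 groups. The iTreg group came from mice depleted with DTx (40 ng/g) and then given intravenous immunoglobulin (IVIg), pooled human IgG, at 2 g/kg. Mice of the e_iTreg group received IVIg at that dose but no DTx per the series design, and its label calls it mixed endogenous and induced Treg. Mice of the eTreg group received albumin of human serum (HSA) as the protein control, at 2 g/kg and likewise without DTx. The growth text, which is the same for every sample, mentions DTx before IVIg or HSA, and the absence of DTx in e_iTreg and eTreg mice rests on the series design alone. Between iTreg and eTreg the effects of IVIg and DTx cannot be told apart, and e_iTreg minus eTreg is, by that design, the comparison in which IVIg alone differed. Age, sex, the sort gate and whether animals were pooled are not given in the sources used here.

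Values are log2 expression after the authors' RMA processing, given as mean ± SD, and each difference between groups as log2 ± SE (n = 4 arrays a group). The 8 markers of Treg and CD4 T cells averaged 11.58 to 11.70 in iTreg, 11.60 to 11.70 in e_iTreg and 11.64 to 11.71 in eTreg. Foxp3, which defines Treg, averaged 12.17 in iTreg, 12.30 in e_iTreg and 12.46 in eTreg. Some arrays stood apart. In iTreg replicate 4 the mean of 20 monocyte, macrophage and dendritic cell (myeloid) markers was 8.23, against 6.59 to 7.25 in the other 11 arrays, and the mean of 8 plasma cell markers was 9.54. In eTreg replicates 3 and 4 and e_iTreg replicate 4 the mean of 14 B cell markers was 6.50 to 6.57, against 7.11 to 7.90 in the other 9 arrays. These are bulk samples, in which fewer cells of a type and less RNA per cell cannot be told apart. Some results below are also given without iTreg replicate 4. Other differences between groups are from all 12 arrays unless stated, and that array moves some of them too.

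The starts of 5 member genes are printed. They are the 4 that hold a motif searched here, and Fcer1g, which holds neither and had the largest gap between iTreg replicate 4 and the other arrays. Each stretch runs from 170 bases before to 30 bases after the annotated start, 5′ to 3′ on the gene's strand (RefSeq, GRCm38.p6), and Fcgr1, Fcgr3, Fcer1g and Trim21 lie on the minus strand and Fcgr4 on the plus strand. Capitals mark GAGGAA, a core of sites bound by the myeloid factor PU.1, or GAAA, any 2 bases and GAAA again, a core of interferon response elements, on either strand. The motifs were chosen after the values were seen.
Fcgr1, chr3:96293940-96294139: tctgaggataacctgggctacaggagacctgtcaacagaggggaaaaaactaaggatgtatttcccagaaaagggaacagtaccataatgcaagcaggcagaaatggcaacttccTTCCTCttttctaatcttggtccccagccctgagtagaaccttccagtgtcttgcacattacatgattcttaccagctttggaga
Fcgr3, chr1:171059374-171059573: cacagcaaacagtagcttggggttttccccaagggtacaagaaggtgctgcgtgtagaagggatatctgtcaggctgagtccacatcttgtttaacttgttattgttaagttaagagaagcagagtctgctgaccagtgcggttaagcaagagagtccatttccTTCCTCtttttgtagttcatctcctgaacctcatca
Fcgr4, chr1:171018756-171018955: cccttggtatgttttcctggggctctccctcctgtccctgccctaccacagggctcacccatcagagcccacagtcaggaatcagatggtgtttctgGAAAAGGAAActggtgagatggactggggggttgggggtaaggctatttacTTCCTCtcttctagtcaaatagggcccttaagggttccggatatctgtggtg
Fcer1g, chr1:171234320-171234519: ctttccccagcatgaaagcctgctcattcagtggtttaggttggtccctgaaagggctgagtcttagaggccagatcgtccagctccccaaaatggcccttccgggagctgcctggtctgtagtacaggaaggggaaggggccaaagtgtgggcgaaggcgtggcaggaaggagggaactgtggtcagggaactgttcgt
Trim21, chr7:102565453-102565652: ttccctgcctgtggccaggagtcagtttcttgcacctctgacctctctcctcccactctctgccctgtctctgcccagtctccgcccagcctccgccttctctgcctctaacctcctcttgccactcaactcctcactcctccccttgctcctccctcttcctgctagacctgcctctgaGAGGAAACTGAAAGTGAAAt
All 9 genes had an entry in the promoter table, with 12 start sites. GAGGAA, or TTCCTC on the other strand, was in this window of 4 of the 9 genes, Fcgr1, Fcgr3, Fcgr4 and Trim21, and in 19.3% of 32544 promoters. Members are counted here by gene, over any of a gene's start sites, and the shares by single promoter, so the units differ. Of the 6 members highest in iTreg replicate 4, Fcgr1, Fcgr3 and Fcgr4 held it and Fcgr2b, Fcer1g and Fcgrt did not. The pair of GAAA was in the windows of Fcgr4 and Trim21, and in 2.18% of promoters. In Trim21 it occurred 2 times, the copies overlapping each other and only the first of them overlapping GAGGAA. A match describes the letters only.

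Among the activating receptors, Fcgr1, the high-affinity IgG receptor, came nearest to a difference. Its values were 6.06, 6.92, 6.19 and 7.24 in iTreg replicates 1 to 4, against 6.14, 6.07, 6.45 and 6.24 in e_iTreg and 6.28, 5.89, 6.06 and 6.09 in eTreg. Replicates 2 and 4 of iTreg lay above every array of the other groups, while replicates 1 and 3 lay among them. The means of 6.08 in eTreg and 6.23 in e_iTreg were close to log2 6, the filter on dim probe sets. Near that level differences can be compressed by array background. The difference of iTreg minus eTreg was 0.52 ± 0.21, with a 95% interval of 0.08 to 0.97 and adjusted p = 0.149 by limma. Without iTreg replicate 1 it was 0.71 ± 0.20 and passed (adjusted p = 0.0452), and without iTreg replicate 4 it was 0.31 ± 0.18 (adjusted p = 0.368). Against e_iTreg the difference was 0.38 ± 0.21 (0.16 without iTreg replicate 4), and e_iTreg minus eTreg was 0.15 ± 0.21.

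Fcgr4, an activating receptor of mouse monocytes, macrophages and neutrophils, was high in 1 array. It stood at 5.93, 5.30, 5.73 and 7.59 in iTreg, 5.59, 5.47, 5.96 and 5.33 in e_iTreg, and 5.71, 5.86, 5.58 and 5.38 in eTreg. The groups overlapped apart from iTreg replicate 4, which was 1.63 above the next highest of the 12 arrays. In the other 11 arrays Fcgr4 lay between 5.30 and 5.96, below log2 6, the level used as a filter on dim probe sets, where differences can be compressed by array background. For iTreg minus eTreg the difference was 0.50 ± 0.35 (adjusted p = 0.468), and without iTreg replicate 4 it was 0.02 ± 0.17 with a 95% interval of -0.35 to 0.39.

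Fcer1g, the signalling chain shared by the activating receptors, had the same high array. Its values were 7.41, 7.29, 7.16 and 9.35 in iTreg, 7.37, 7.57, 7.59 and 6.66 in e_iTreg, and 7.52, 7.67, 7.50 and 6.36 in eTreg. Replicate 4 was thus the highest array of iTreg and the lowest of each other group, and the remaining 9 arrays lay within 7.16 to 7.67. The difference of iTreg minus eTreg was 0.54 ± 0.41 with all arrays (adjusted p = 0.535) and 0.02 ± 0.28 without iTreg replicate 4.

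Fcgr3, an activating receptor that NK cells carry too, was at 7.17, 6.93, 6.93 and 7.91 in iTreg, 7.23, 6.92, 7.01 and 6.51 in e_iTreg, and 6.68, 6.76, 7.01 and 6.78 in eTreg. Without its highest array the iTreg group lay inside the range of e_iTreg. For iTreg minus eTreg the difference was 0.43 ± 0.20 (unadjusted p = 0.0461, adjusted p = 0.218), and without iTreg replicate 4 it was 0.20 ± 0.15 (adjusted p = 0.526). Fcgr2b, Fcgr3 and Fcgr4 are close relatives, and whether their probes take signal from each other's transcripts was not tested.

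**Figure D1:**
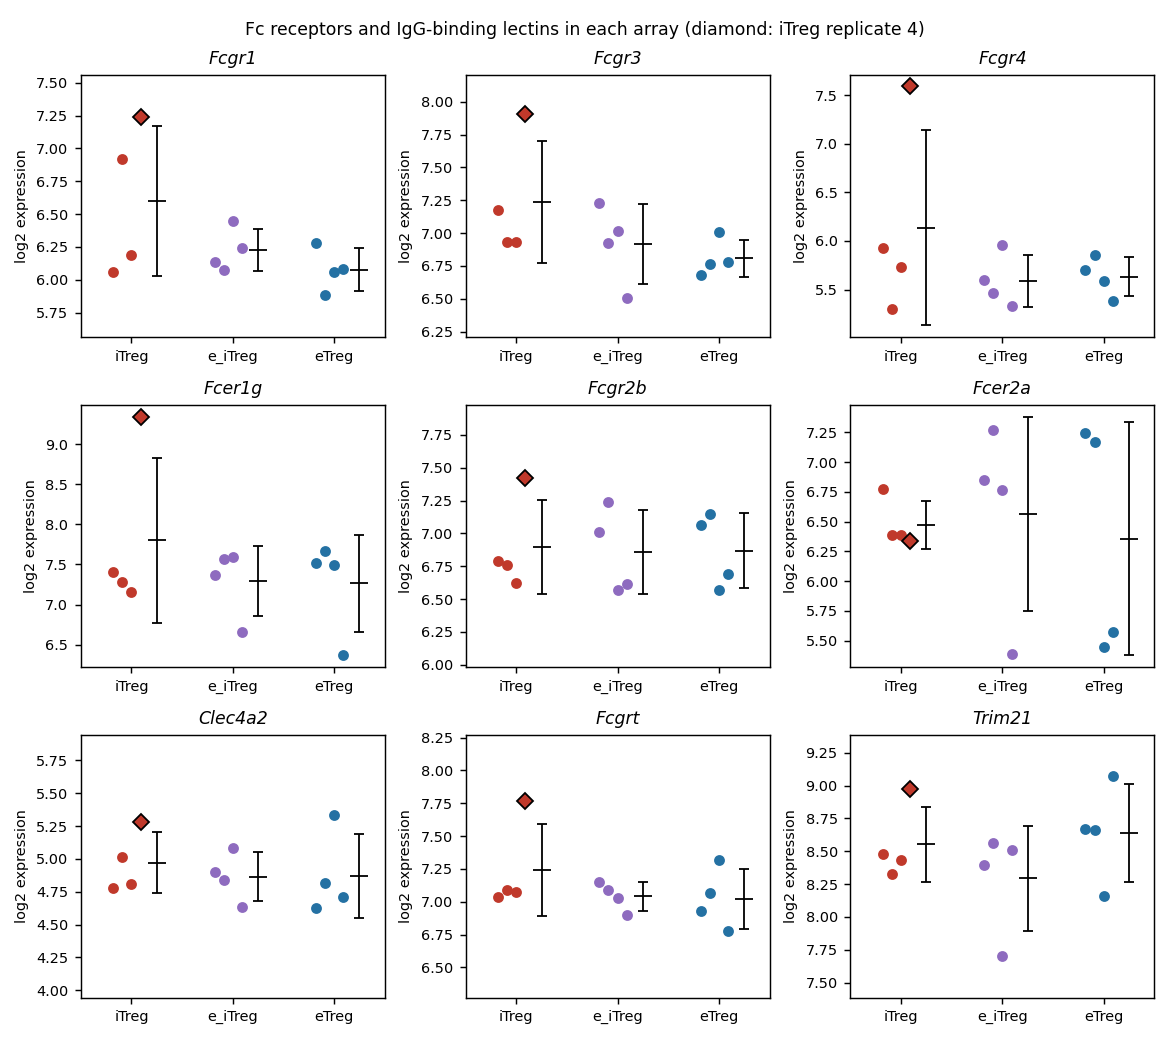
Log2 expression (y axis) of the 9 genes in iTreg, e_iTreg and eTreg (x axis), 1 panel per gene, with 1 point per array and the group mean ± SD (n = 4) beside the points. The diamond is iTreg replicate 4, which reached 9.35 for Fcer1g and 7.59 for Fcgr4 and was the highest of the 12 arrays for 6 of the 9 genes.

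The inhibitory receptor Fcgr2b had nearly equal group means, 6.90 ± 0.36 in iTreg, 6.86 ± 0.32 in e_iTreg and 6.87 ± 0.28 in eTreg (SD, n = 4 each). By array it was at 6.79, 6.76, 6.62 and 7.42 in iTreg, 7.01, 7.24, 6.57 and 6.61 in e_iTreg, and 7.07, 7.15, 6.57 and 6.69 in eTreg. Each group held arrays near 6.6 and at least 1 above 7, and the groups overlapped. The difference of iTreg minus eTreg was 0.03 ± 0.19 with a 95% interval of -0.38 to 0.44, and -0.14 ± 0.18 without iTreg replicate 4.

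Fcer2a, the IgE receptor of B cells, varied more within groups than between them. It was at 6.77, 6.39, 6.38 and 6.34 in iTreg, 6.85, 7.27, 6.76 and 5.39 in e_iTreg, and 7.24, 7.17, 5.44 and 5.57 in eTreg. The low arrays, eTreg replicates 3 and 4 and e_iTreg replicate 4, lay between 5.39 and 5.57, below every other array, and were the arrays with the lowest B cell marker means. The SD was 0.20 in iTreg, against 0.82 in e_iTreg and 0.98 in eTreg (n = 4 each). For iTreg minus eTreg the difference was 0.11 ± 0.42 and that of e_iTreg minus eTreg 0.21 ± 0.42, with a 95% interval of -0.68 to 1.10. With the B cell marker mean as a covariate these became -0.04 ± 0.10 and -0.02 ± 0.10.

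Clec4a2, the lectin DCIR, lay low on the array's scale in every group. It was at 4.78, 5.02, 4.81 and 5.28 in iTreg, 4.90, 4.84, 5.08 and 4.64 in e_iTreg, and 4.62, 4.82, 5.34 and 4.71 in eTreg. All 12 arrays were below log2 6, so its differences may be compressed as well. The difference of e_iTreg minus eTreg was -0.01 ± 0.16 with a 95% interval of -0.34 to 0.33. That of iTreg minus eTreg was 0.10 ± 0.16, and -0.0035 without iTreg replicate 4.

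Fcgrt, the gene of FcRn, differed little between arrays apart from 1. It was at 7.03, 7.09, 7.08 and 7.77 in iTreg, 7.15, 7.09, 7.03 and 6.90 in e_iTreg, and 6.93, 7.06, 7.32 and 6.77 in eTreg. Replicate 4 of iTreg lay above every other array, and the remaining iTreg arrays, at 7.03 to 7.09, lay inside the ranges of e_iTreg and eTreg. The difference of iTreg minus eTreg was 0.22 ± 0.16, and 0.04 ± 0.12 without iTreg replicate 4. Its partner B2m averaged 13.4 in iTreg, 13.5 in e_iTreg and 13.5 in eTreg, with a difference of -0.06 ± 0.09 for iTreg minus eTreg.

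Trim21, the cytosolic antibody receptor, was the only member with a lower mean in both IVIg groups than in eTreg, though it passed in neither comparison. It was at 8.48, 8.32, 8.44 and 8.97 in iTreg, 8.40, 8.56, 7.70 and 8.51 in e_iTreg, and 8.67, 8.66, 8.16 and 9.07 in eTreg. The groups overlapped, and replicate 3 was the lowest array of both e_iTreg and eTreg. The difference of e_iTreg minus eTreg was -0.35 ± 0.21 with a 95% interval of -0.79 to 0.10 and adjusted p = 0.727. That of iTreg minus eTreg was -0.09 ± 0.21 and that of iTreg minus e_iTreg 0.26 ± 0.21. Without iTreg replicate 4 they were -0.23 and 0.12.

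Read together, the 9 genes gave 0 calls in each comparison at adjusted p 0.05 by limma. In e_iTreg minus eTreg, where by design IVIg was the difference, 0 of 23521 probe sets passed (0%), and 0 of the 9 members had an unadjusted p under 0.05, against 7.01% of all probe sets. In iTreg minus eTreg 9.99% of all probe sets passed, and 2 members, Fcgr1 and Fcgr3, had an unadjusted p under 0.05, against 21.7% of all. In iTreg minus e_iTreg 11.2% passed, and 0 members had an unadjusted p under 0.05, against 26.3% of all. No member had groups that did not overlap, against 4.29%, 14.7% and 16.6% of all probe sets for e_iTreg against eTreg, iTreg against eTreg and iTreg against e_iTreg.

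The median member difference was 0.02 in e_iTreg minus eTreg, beside 0.03 over all probe sets. In iTreg minus eTreg 8 of 9 members were higher in iTreg, as were 46.7% of all probe sets, with a median of 0.22 beside -0.01 over all. In iTreg minus e_iTreg 8 of 9 were higher, as were 36.7% of all, with a median of 0.26 beside -0.07. Without iTreg replicate 4 the medians were 0.02 in both, with 6 of 9 higher in each, beside -0.01 and -0.07 over all. The 2 comparisons share the iTreg arrays. The half-widths of the 95% intervals ran from 0.34 for Fcgrt to 0.89 for Fcer2a, so smaller differences could not be resolved.

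**Figure D2:**
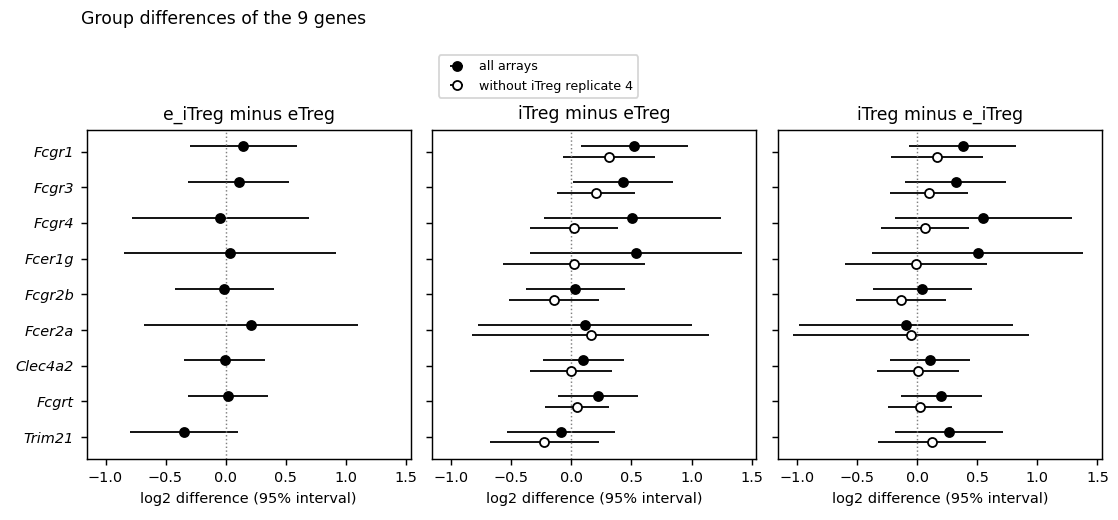
Log2 differences with 95% intervals (x axis) for the 9 genes (rows) in the 3 comparisons, with all arrays (filled). Open points, without iTreg replicate 4, are drawn only in the comparisons with iTreg. In iTreg minus eTreg Fcgr4 was at 0.50 with that array and 0.02 without it, and Fcer1g at 0.54 with it and 0.02 without it.

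The members were among the more variable probe sets. The residual SD within groups was 0.25 for Fcgrt and Clec4a2 and reached 0.74 for Fcer1g and 0.75 for Fcer2a, beside a median of 0.17 over all probe sets. Without iTreg replicate 4 it was 0.26 for Fcgr4, against 0.61 with it, and 0.16 for Fcgrt. For Fcer2a it was 0.79 without that array. In iTreg replicate 4, 6 of the 9 members (Fcgr1, Fcgr2b, Fcgr3, Fcgr4, Fcer1g and Fcgrt) were higher than in every other array, as were 7.91% of all probe sets. Trim21, Clec4a2 and Fcer2a were not.

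The same array was high in other myeloid genes. Of the 20 measured myeloid markers 16 were highest in iTreg replicate 4, as were all 7 neutrophil markers and all 8 plasma cell markers, against 2 of 14 B cell markers and 1 of 7 NK cell markers. Over all probe sets the share was 7.91%. C1qb, a chain of the complement component C1q made by macrophages, was at 9.83 there and between 6.10 and 7.55 in the other 11 arrays. Csf1r, the macrophage growth factor receptor, was at 8.99 there and between 6.24 and 7.35 elsewhere. Jchain, the joining chain of secreted antibody, was at 11.69 there, against 4.84 to 8.18 elsewhere. The part of such cells in the members' values was not tested.

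Among myeloid markers, 3 of 20 rose in iTreg minus eTreg and none fell, and these did so without iTreg replicate 4 as well. Over all probe sets 5.36% rose and 4.63% fell in that comparison, and 8.08% passed in either direction without that array. The genes were Itgam, an integrin chain (1.68 ± 0.29; 1.46 without that array), Ccr2, a chemokine receptor that some T cells carry (1.96 ± 0.39; 1.73 without it), and Cst3, a protease inhibitor (0.57 ± 0.13; 0.51 without it). The median of the 20 was 0.37 with all arrays and 0.01 without iTreg replicate 4, beside -0.01 over all probe sets in each. Of the B cell markers 0 of 14 passed in any comparison, and in iTreg minus eTreg those with the smallest p were Ralgps2 at -0.31 ± 0.12 and Pou2af1, a coactivator of B cells, at 0.38 ± 0.30. Of the neutrophil markers 0 of 7 passed, with Retnlg at 0.70 ± 0.22 (adjusted p = 0.0572 by limma) and S100a8, a calcium-binding protein of neutrophils and monocytes, at 1.52 ± 0.51 (adjusted p = 0.0754 by limma). Among NK cell markers Gzma, a granule protease that T cells make too, rose in iTreg minus eTreg (2.20 ± 0.33), and the other 6 did not pass, among them the NK receptor Ncr1 at 0.05 ± 0.15. Of 6 mast cell and basophil markers Mcpt8, a basophil protease, rose by 0.99 ± 0.20, and the other 5 did not pass. Of 8 plasma cell markers Prdm1, a transcription factor that effector T cells make too, rose by 1.04 ± 0.19 in iTreg minus eTreg (0.89 without iTreg replicate 4), and the other 7 did not pass. Among these 7, Jchain was at 2.62 ± 0.81 (adjusted p = 0.0551 by limma). Without iTreg replicate 4 Jchain was at 1.53 ± 0.46 (adjusted p = 0.0584 by limma). Itgam, Ccr2, Cst3, Gzma, Mcpt8 and Prdm1 rose in iTreg minus e_iTreg too, of which Cst3 and Mcpt8 did not pass without iTreg replicate 4 (adjusted p = 0.0817 and 0.0798 by limma). Of the 8 Treg and CD4 T cell markers 0 passed in any comparison, with Foxp3 at -0.29 ± 0.13 and Il2ra, a chain of the interleukin-2 receptor, at -0.12 ± 0.14 in iTreg minus eTreg.

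**Figure D3:**
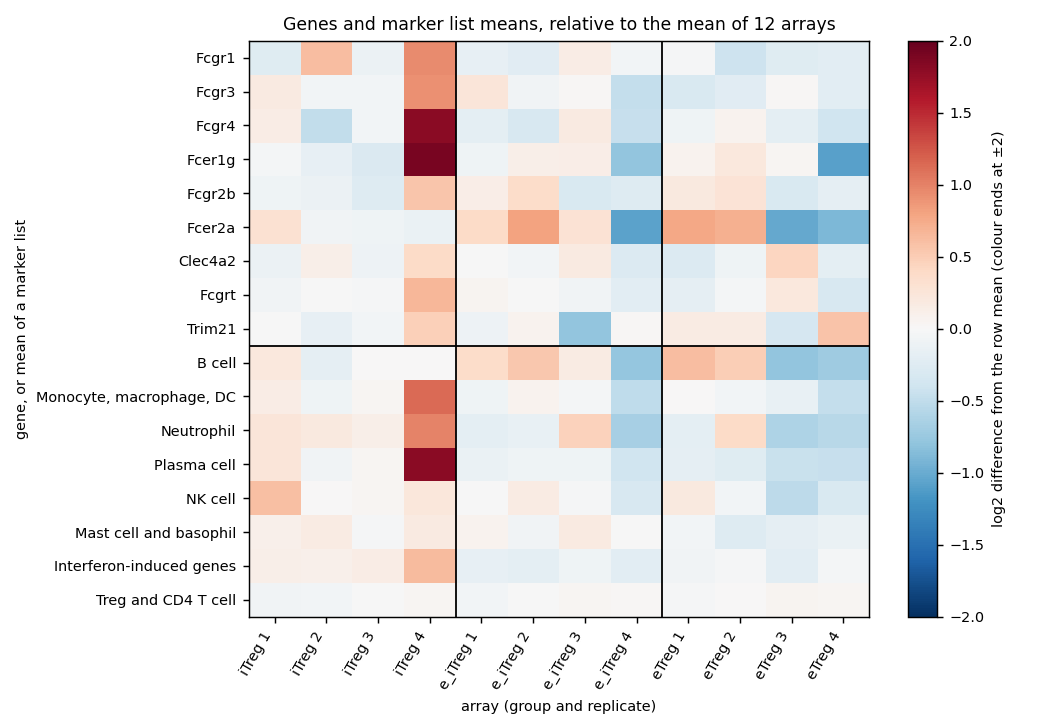
Log2 difference from the mean of 12 arrays (colour) for the 9 genes (upper rows) and for the means of marker lists (lower rows) in each array (columns, iTreg, e_iTreg, then eTreg). Fcer2a followed the row of B cell markers, and iTreg replicate 4 stood out in Fcer1g, Fcgr4 and the myeloid and plasma cell rows.

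The members were set against the B cell and myeloid marker means over the arrays, 18 relations with Benjamini-Hochberg adjustment. B cell marker means fell into separate clusters of 3 and 9 arrays, so that relation was read within the 9. There Fcer2a went with the B cell mean, with Pearson r = 0.96 (exact permutation adjusted p = 0.00357) and Spearman rho = 0.93 (exact permutation adjusted p = 0.0135), and r was 0.97 without the 2 arrays farthest from the median. For deviations from the group means over 12 arrays r was 0.99 (exact permutation within groups, adjusted p = 0.0117). None of the other 8 members passed against the B cell mean, and Fcgr2b, which B cells express, had r = 0.42 (exact permutation adjusted p = 0.382). Over all 12 arrays, the relation first planned, r of Fcgr2b was 0.63. On deviations from the group means it was 0.64 (exact permutation within groups, adjusted p = 0.112).

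Against the myeloid mean over 12 arrays, Fcer1g had r = 0.95 (permutation adjusted p = 0.00918) and rho = 0.60 (permutation adjusted p = 0.196), and without iTreg replicate 4 and e_iTreg replicate 4 r was 0.75. Fcgr4 had r = 0.93 (permutation adjusted p = 0.00918), rho = 0.72 (permutation adjusted p = 0.0942), and r = 0.53 without these arrays. For Fcgr3, Fcgrt and Fcgr2b r was 0.88, 0.86 and 0.68 (permutation adjusted p = 0.0133, 0.0188 and 0.0271), rho was 0.45, 0.36 and 0.60 (permutation adjusted p = 0.295, 0.438 and 0.196), and r was 0.31, 0.37 and 0.30 without these arrays, so those relations rest on them. Within groups Fcer1g (r = 0.97) and Fcgr4 (r = 0.92) passed (exact permutation within groups, adjusted p = 0.0165 each) and the other 7 members did not. The within-group test kept all 12 arrays, so it does not separate these relations from iTreg replicate 4. Fcgr1, Trim21, Clec4a2 and Fcer2a did not pass against the myeloid mean.

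**Figure D4:**
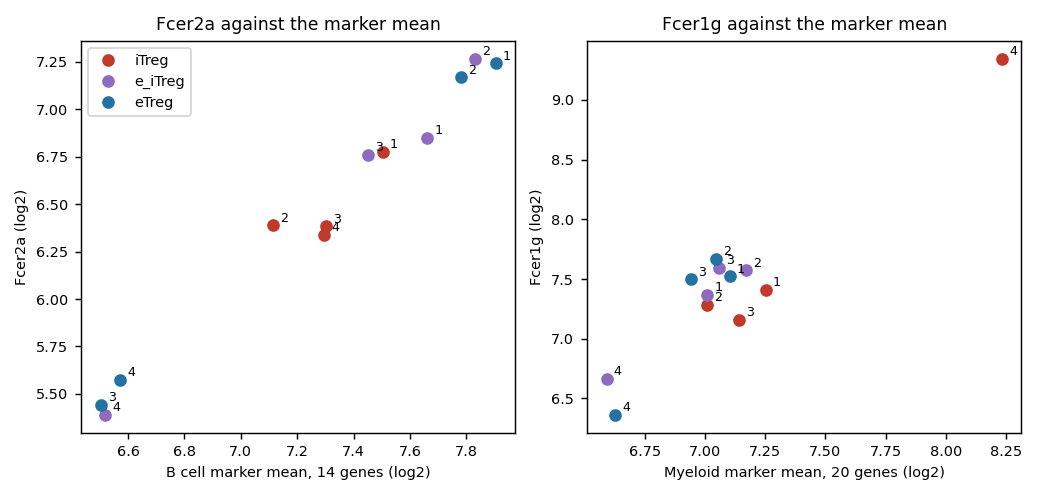
Fcer2a against the mean of 14 B cell markers (left) and Fcer1g against the mean of 20 myeloid markers (right), all in log2, with 1 point per array coloured by group and numbered by replicate. Fcer2a was higher where the B cell mean was higher, and iTreg replicate 4 lay alone at 8.23 on the myeloid axis with Fcer1g at 9.35.

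The genes with the most similar profile over the 12 arrays were found among up to 12596 genes above log2 6, by Pearson r and as a description only. For Fcer2a they were Ms4a1 (CD20), Spib and H2-Eb1, with r from 0.97 to 0.98, which held without iTreg replicate 4 (0.97 to 0.98). For Fcgrt they were C1qb, Fcna and C1qa (r = 0.95 to 0.97; 0.83 to 0.90 without iTreg replicate 4), and for Fcer1g they were Plbd1, C1qb and Sirpa (0.95 to 0.96; 0.82 to 0.90). For Fcgr2b they were the Src-family kinase gene Fgr, Unc93b1 and the B cell kinase gene Btk (0.88 to 0.89; 0.83 to 0.86). For Fcgr4 they were the immunoglobulin segment Igkj1, Slpi and Fkbp11 (0.96 each; 0.64 to 0.83), and for Fcgr3 Gatm, Galnt3 and Plpp3 (0.91 to 0.92; 0.67 to 0.74). For Fcgr1 they were Hgs, Lif and Isg20 (0.85 to 0.90; 0.62 to 0.80). Trim21 went with Zfp101, Ttf1 and Ogfod1 (0.88 to 0.92; 0.86 to 0.91), and Clec4a2 with Mrap, Itga9 and Hes6 (0.81 to 0.84; 0.75 to 0.80). These arrays share the same groups and the same few high arrays.

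Other genes of the Fc receptor family and its signalling chain mostly did not pass either. Of 11 further family members 0 passed in e_iTreg minus eTreg or iTreg minus eTreg, where 0% and 9.99% of all probe sets passed. In iTreg minus e_iTreg 1 fell, Fcrls (-0.36 ± 0.10, adjusted p = 0.0254 by limma), while 11.2% of all probe sets passed and 4.75% fell. Fcrls was dim, at 5.18 in iTreg and 5.54 in e_iTreg. The family's IgE receptor chain Fcer1a, dim at 3.91 in iTreg and 3.58 in eTreg, was at 0.32 ± 0.11 for iTreg minus eTreg and did not pass, and Fcrls was at -0.16 ± 0.10 there. Fcmr, the Fc receptor for IgM, was at 8.77, 8.38, 8.43 and 7.72 in iTreg, 9.13, 9.50, 9.08 and 7.60 in e_iTreg, and 9.65, 9.46, 7.30 and 7.38 in eTreg, low in the same 3 arrays as Fcer2a and in iTreg replicate 4; it was named after its values were seen.

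Among 22 sialic acid-binding and C-type lectins 0 passed in the comparisons with eTreg. In iTreg minus e_iTreg, Siglech, a lectin of plasmacytoid dendritic cells, fell by 0.45 (SE 0.12, adjusted p = 0.0298 by limma), with 5.99 in iTreg and 6.44 in e_iTreg. It was the only 1 of the 22 to pass there, while 11.2% of all probe sets passed and 4.75% fell. The DCIR relatives Clec4a1 and Clec4a3 were at 0.61 ± 0.28 and 0.48 ± 0.23 in iTreg minus eTreg, and at 0.24 and 0.23 without iTreg replicate 4. Clec4n, the receptor dectin-2 that signals through the Fcer1g chain, was at 8.03 in iTreg replicate 4 and between 5.03 and 6.06 in the other 11 arrays; it was named after its values were seen. In that array 9 of the 22 lectins were higher than in every other, as were 7.91% of all probe sets.

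Of 18 measured signalling genes below ITAM and ITIM receptors, 0 passed in any comparison. Among all probe sets 0% passed for e_iTreg against eTreg, 9.99% for iTreg against eTreg and 11.2% for iTreg against e_iTreg. Inpp5d averaged 11.0 in iTreg, 11.0 in e_iTreg and 10.9 in eTreg, with a difference of 0.11 ± 0.12 for iTreg minus eTreg (0.003 without iTreg replicate 4). Syk was at 0.27 ± 0.23 in the same comparison, Ptpn6, the phosphatase SHP-1, at 0.20 ± 0.12, and Fyn at -0.19 ± 0.10. Tyrobp, an ITAM adaptor of myeloid and NK cells, was at 8.86 in iTreg replicate 4 and between 6.09 and 7.70 elsewhere. Of the 5 partners of FcRn and Trim21 0 passed, beside the same shares of all probe sets. Vcp, the segregase that acts with Trim21, was at 0.28 ± 0.09 in iTreg minus e_iTreg (adjusted p = 0.0587 by limma). Vcp was at 0.24 ± 0.09 in iTreg minus eTreg, where the ubiquitin-conjugating enzyme gene Ube2w was at -0.25 ± 0.12.

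Interferon-induced genes, the class Trim21 belongs to, gave a different count. Of 16 measured genes 0 passed in e_iTreg minus eTreg, 4 rose when iTreg was set against eTreg and 5 when it was set against e_iTreg. Of all probe sets 5.36% rose and 4.63% fell against eTreg, and 6.49% rose and 4.75% fell against e_iTreg, while none of the 16 passed as lower. Against eTreg, Ifit3, Trim30a and Usp18 had negative differences and the other genes positive ones. The median of the 16 was 0.21 against eTreg and 0.28 against e_iTreg, and 0.06 and 0.21 without iTreg replicate 4. Over all probe sets it was -0.01 and -0.07, with that array and without it. Oas3, an antiviral synthetase, was at 8.69, 8.47, 8.69 and 8.94 in iTreg, 7.61, 7.69, 7.43 and 7.49 in e_iTreg, and 7.71, 7.64, 7.62 and 7.37 in eTreg. Every iTreg array lay above every other array, and the difference of iTreg minus eTreg was 1.11 ± 0.11 (adjusted p = 0.000225 by limma). Cmpk2, a nucleotide kinase, rose by 1.20 ± 0.17, the membrane protein Bst2 by 0.87 ± 0.19 and the ubiquitin-like Isg15 by 0.82 ± 0.23, beside -0.09 ± 0.21 for Trim21. In iTreg minus e_iTreg Rtp4, a receptor transporter, rose by 0.79 ± 0.15 as well. Without iTreg replicate 4, 3 genes passed in each comparison, and Isg15 was no longer among them in iTreg minus eTreg (0.58 ± 0.18, adjusted p = 0.0732), nor Isg15 and Bst2 in iTreg minus e_iTreg (adjusted p = 0.0677 and 0.072).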

How the data were processed

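The deposited log2 values were made by the authors with oligo and RMA, per the submitters' processing notes, from Affymetrix arrays of RNA amplified from 2 ng per sample, per the labels' protocols. Versions and a genome build are not given in the sources used here. Of 41345 rows, 23521 had 1 gene symbol and entered the tests, 1814 had several and 16010 none. Symbols were updated through RefSeq gene numbers (23328 matched). A linear model over 12 arrays (4 per group, 9 residual degrees of freedom) was fitted with limma 3.58.1 in R 4.3.3, two-sided, with Benjamini-Hochberg adjustment over all 23521 probe sets. The series design calls the arrays of a group biological replicates and the labels name no animals, so p-values reflect only the variation among these arrays, whose small number sets the precision. Lists were counted on 1 probe set per gene, that with the highest mean. The fit was tested on simulated data. Relations used 100000 resamples for 12 arrays and every permutation otherwise. The members and the 12 other lists were chosen with earlier results of these data known. Named from each list were members past the threshold (up to 4), otherwise the 2 with the smallest p in iTreg minus eTreg (those of the other comparisons are not all named). Others named are background partners, or examples, chosen after their values were seen: B2m, Inpp5d, Syk, Tyrobp, Fcmr, Clec4n, C1qb, Csf1r, Jchain, Ncr1, Ifit3, Trim30a and Usp18. Of 12 same-numbered pairs of arrays, 3 had deviations from the group means correlated above 0.1. Differently numbered pairs were not compared, so whether replicate numbers pair the samples cannot be told from this. Alternatives were other normalizations, filters, rows, error models, covariates, a replicate block, adjusted p 0.1 and leaving out each array.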

Additional observations from a re-analysis of the deposited data

Results flagged for a closer look

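In 9 of 63 groups of 4 arrays tested, over the members and the list means, 1 array lay far from the other 3 of its group by Dixon's test at the 95% level, and chance flags about 1 in 20 such groups. In iTreg replicate 4, Fcer1g was at 9.35, against 7.16 to 7.41 in the other iTreg arrays, and Fcgrt was at 7.77, against 7.03 to 7.09. The same array stood apart in list means, with 6.29 for the lectins (5.74 to 5.83 in the others), 9.05 for the interferon-induced genes (8.53 to 8.57), 9.54 for the plasma cell markers (7.68 to 7.98) and 7.20 for the neutrophil markers (6.32 to 6.45). In eTreg replicate 4 Fcer1g was at 6.36, against 7.50 to 7.67. In e_iTreg replicate 4 the plasma cell marker mean was 7.35, against 7.61 to 7.66. In iTreg replicate 1 Fcer2a was at 6.77, against 6.34 to 6.39.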

How the results depend on the processing

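No member passed in any comparison under any alternative except Fcgr1 in iTreg minus eTreg without iTreg replicate 1, so the count there ran from 0 to 1 as arrays were left out. Some member differences changed sign, with no call on either side, and the cause was not tested. Most were near 0, but with the myeloid mean as covariate they included the largest ones, Fcer1g and Fcgr4 in both comparisons with iTreg (0.50 to 0.55 without the covariate). In e_iTreg minus eTreg Fcgrt was at -0.0043 after quantile normalization and -0.045 after median centring, and Fcer1g was at -0.0301 after median centring. With array weights Fcgr2b was at 0.0097 and Fcer1g at -0.0894. With the B cell mean as covariate Fcer1g was at -0.0605, Clec4a2 at 0.00995 and Fcer2a at -0.0228, and with the myeloid mean Fcer1g was at -0.018. In iTreg minus eTreg Fcgr2b was at -0.0108 with array weights and -0.0119 with the B cell mean, and Fcer2a at -0.0367 with the B cell mean. With the myeloid mean the values there were -0.29 for Fcgr2b, -0.22 for Fcgr4, -0.38 for Fcer1g, -0.0484 for Fcgrt, -0.0599 for Clec4a2 and -0.26 for Fcer2a. In iTreg minus e_iTreg Fcgr2b was at -0.0206 with array weights, and with the myeloid mean Fcgr2b was at -0.26, Fcgr3 at -0.0124, Fcgr4 at -0.13, Fcer1g at -0.36, Fcgrt at -0.0533 and Clec4a2 at -0.044. As arrays were left out 1 at a time, e_iTreg minus eTreg ran between -0.089 and 0.15 for Clec4a2, -0.26 and 0.25 for Fcer1g, -0.0948 and 0.60 for Fcer2a, -0.14 and 0.0859 for Fcgr2b, -0.17 and 0.0414 for Fcgr4, and -0.0614 and 0.12 for Fcgrt. In iTreg minus eTreg it ran between -0.0035 and 0.25 for Clec4a2, -0.19 and 0.41 for Fcer2a, 0.31 and 0.71 for Fcgr1, -0.14 and 0.12 for Fcgr2b, and -0.245 and 0.058 for Trim21. In iTreg minus e_iTreg it ran between -0.014 and 0.71 for Fcer1g, -0.49 and 0.14 for Fcer2a, and -0.13 and 0.17 for Fcgr2b. On deviations from the group means the relation to the B cell mean was 0.15 for Fcgr3, 0.22 for Fcgr4, 0.41 for Fcer1g and 0.0533 for Fcgrt, all negative within the 9 arrays.

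Over all probe sets the calls numbered 2349 for iTreg against eTreg and 2643 for iTreg against e_iTreg. With the myeloid mean as covariate they were 1038 and 1270, and as arrays were left out they ran between 1487 and 2214, and between 1616 and 2852. With replicate number as a block the calls were 0 in e_iTreg minus eTreg, 2225 for iTreg against eTreg and 2394 for iTreg against e_iTreg, with 0 members in each, and Fcgr1 in iTreg minus eTreg had adjusted p = 0.162 by limma. The block changed no call of a member. Same-numbered arrays had correlations of -0.15 to 0.24, which do not settle whether the numbers pair the samples. The filters on dim probe sets gave no value for members below them. Leaving out iTreg replicate 4 for the marker lists, and reading the B cell relation within 9 arrays, were chosen after seeing the data.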
